A study of Mus musculus with 9 samples.

Results

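The 9 genes described here encode ligands of immune checkpoints: Cd274 (PD-L1), Pdcd1lg2 (PD-L2), Cd80 and Cd86 (B7-1 and B7-2), Icosl (ICOS ligand), Vtcn1 (B7-H4), Cd276 (B7-H3), Pvr (the poliovirus receptor homologue, CD155) and Lgals9 (galectin-9). They were chosen by name but with earlier results of these data known, so shares of members set against all genes are descriptions. All 9 were measured among the 19938 genes with a single symbol on the array. Where a gene had more than 1 feature (the probe set that stands for a transcript), that with the highest mean signal was used, which concerned only Cd80.

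The study profiled snap-frozen mammary tumours on Affymetrix Mouse Gene 1.0 ST arrays, 3 samples from each of the transplantable mouse lines NDL, Met1 and SSM2. Cells of each line had been grown in culture and injected into mammary fat pads that kept their own epithelium, in FVB/NJ females of 6 to 8 weeks of age, and no treatment is named. As background, NDL tumours are driven by an activated ErbB2, Met1 tumours by the polyoma middle T antigen, and SSM2 is known as a line that keeps hormone receptors. Each group is 1 line, so a difference between groups is a difference between 3 lines and not between driver genes in general, and the labels do not say whether the samples of a line came from separate animals. The p-values therefore measure the spread between samples, which may be technical. Values are the authors' log2 RMA signals, for which an increase of 1 is a doubling, and errors of means are SDs over 3 arrays.

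As background, T cells need a signal through CD28 in addition to their antigen receptor, and CD80 and CD86 on antigen-presenting cells supply it. CTLA-4 competes for the same ligands and restrains the response. PD-L1 and PD-L2 bind PD-1 and damp activated T cells, ICOS ligand sustains helper T cells, and B7-H4 and B7-H3 are ligands whose receptors are less well settled. CD155 engages the activating receptor CD226 and the inhibitory receptors TIGIT and CD96, and galectin-9 has been described as a ligand of TIM-3 (Havcr2). In mammary tumours some of these proteins are made by the cancer cells and others by infiltrating macrophages and dendritic cells.

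The labelled tissue was checked against marker genes. Over 6 epithelial markers the mean log2 signal was 10.92, 10.99 and 10.92 in the NDL arrays, 7.94, 8.19 and 6.49 in the Met1 arrays, and 10.91, 10.97 and 11.13 in the SSM2 arrays. Epithelial markers were thus lower in Met1 than in both other lines, in 6 of 6 markers each time, and lowest in Met1 replicate 3. The arrays of NDL replicates 1 and 2 had upper quartiles of gene signal of 7.85 and 7.84, below the other 7 arrays (7.98 to 8.09), and counts of calls are also given without them. That leaves 1 NDL array, which the fit assumes to vary like the arrays of the other lines.

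The DNA just before the transcription start is shown for 4 members that differed between lines and have a RefSeq promoter (GRCm38.p6), namely Cd274, Vtcn1, Icosl and Lgals9, so that the genes behind the largest differences can be seen. Each sequence is the 250 bases upstream of the start, 5′ to 3′. Capitals mark matches to the motifs that were searched.

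Cd274 (chr19:29367188-29367437, + strand): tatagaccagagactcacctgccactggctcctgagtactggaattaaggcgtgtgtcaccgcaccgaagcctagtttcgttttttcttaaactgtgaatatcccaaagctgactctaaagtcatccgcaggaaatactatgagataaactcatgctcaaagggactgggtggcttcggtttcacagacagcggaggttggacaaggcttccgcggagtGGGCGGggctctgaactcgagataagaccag
Vtcn1 (chr3:100825209-100825458, + strand): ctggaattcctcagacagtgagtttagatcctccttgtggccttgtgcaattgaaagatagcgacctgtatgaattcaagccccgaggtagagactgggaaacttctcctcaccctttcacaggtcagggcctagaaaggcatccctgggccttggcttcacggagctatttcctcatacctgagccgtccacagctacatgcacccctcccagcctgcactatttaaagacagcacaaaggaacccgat
Icosl (chr10:78069118-78069367, + strand): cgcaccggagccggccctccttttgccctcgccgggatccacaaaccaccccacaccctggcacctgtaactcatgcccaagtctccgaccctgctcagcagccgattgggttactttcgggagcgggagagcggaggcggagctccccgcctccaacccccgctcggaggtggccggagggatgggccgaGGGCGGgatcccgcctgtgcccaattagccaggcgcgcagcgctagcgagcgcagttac
Lgals9 (chr11:78984925-78985174, - strand): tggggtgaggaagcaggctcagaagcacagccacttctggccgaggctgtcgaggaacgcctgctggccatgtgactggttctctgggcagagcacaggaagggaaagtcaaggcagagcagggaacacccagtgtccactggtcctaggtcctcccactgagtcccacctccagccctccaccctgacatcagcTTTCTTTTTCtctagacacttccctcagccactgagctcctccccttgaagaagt

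Searched on both strands were GAS (TTCNNNGAA, bound by STAT factors), an ISRE core (TTTC, any 2 bases, TTTC; bound by interferon regulatory factors), AP-1 (TGANTCA) and the GC box (GGGCGG, bound by Sp1). No match of one motif overlapped a match of another in these windows. Cd274 and Icosl each held 1 GC box, a motif present in 32.7% of the 32851 RefSeq promoters of the same length. Lgals9 held 1 ISRE core (TTTCTTTTTC), which 2.98% of the promoters hold, and Vtcn1 held none of the 4 motifs. GAS and AP-1 occurred in 7.02% and 6.75% of promoters and in none of these 4. These matches describe the letters in the windows, and the arrays do not measure binding.

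Between NDL and Met1 tumours the checkpoint ligands differed most. In NDL, Vtcn1 was 13.1-fold higher, while Cd274 (2.86-fold), Cd86 (2.54-fold), Icosl (1.83-fold) and Pvr (1.33-fold) were lower. That is 1 member higher and 4 lower of 9 in limma, against 8.88% of all genes higher and 10.2% lower (19.1% in all). The arrays of both lines did not overlap for 5 of 9 members, the same 5, and for 38.2% of all genes (19.5% higher, 18.6% lower). The median log2 difference of the 9 members was -0.41, against 0.06 over all genes. Without NDL replicates 1 and 2, only Icosl and Pvr passed, both lower, and the Vtcn1 difference was 4.15 (adjusted p = 0.0988 in limma). With any 1 array left out, 2 or 3 members were lower, so at least 1 of the 4 calls ended each time.

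Against SSM2, NDL had lower Lgals9 (1.73-fold) and no other call, so that 0 of 9 members were higher and 1 lower, where 9.35% of all genes were higher and 7.52% lower (16.9% in all). At an unadjusted limma p under 0.05, 1 member was higher (Vtcn1) and 2 lower (Cd274 and Lgals9). The arrays did not overlap for 5 of 9 members, Vtcn1, Cd276 and Pvr higher and Cd274 and Lgals9 lower, and for 31.6% of all genes (19.7% higher, 12% lower). Without NDL replicates 1 and 2 no member passed. Met1 had higher Icosl (1.60-fold) and Pvr (1.56-fold) and lower Lgals9 (1.85-fold) than SSM2, which is 2 members higher and 1 lower of 9, against 7.1% and 4.71% of all genes (11.8% in all). Arrays did not overlap for these 3 and Pdcd1lg2, 3 higher and 1 lower, and for 31.7% of all genes (18.6% higher, 13.1% lower). In a moderated F-test over the 3 lines 5 of 9 members passed, namely Cd274, Vtcn1, Icosl, Pvr and Lgals9, where 25.1% of all genes passed, and 3 passed without NDL replicates 1 and 2. The 3 comparisons share samples, so they are not independent of each other.

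**Figure D1:**
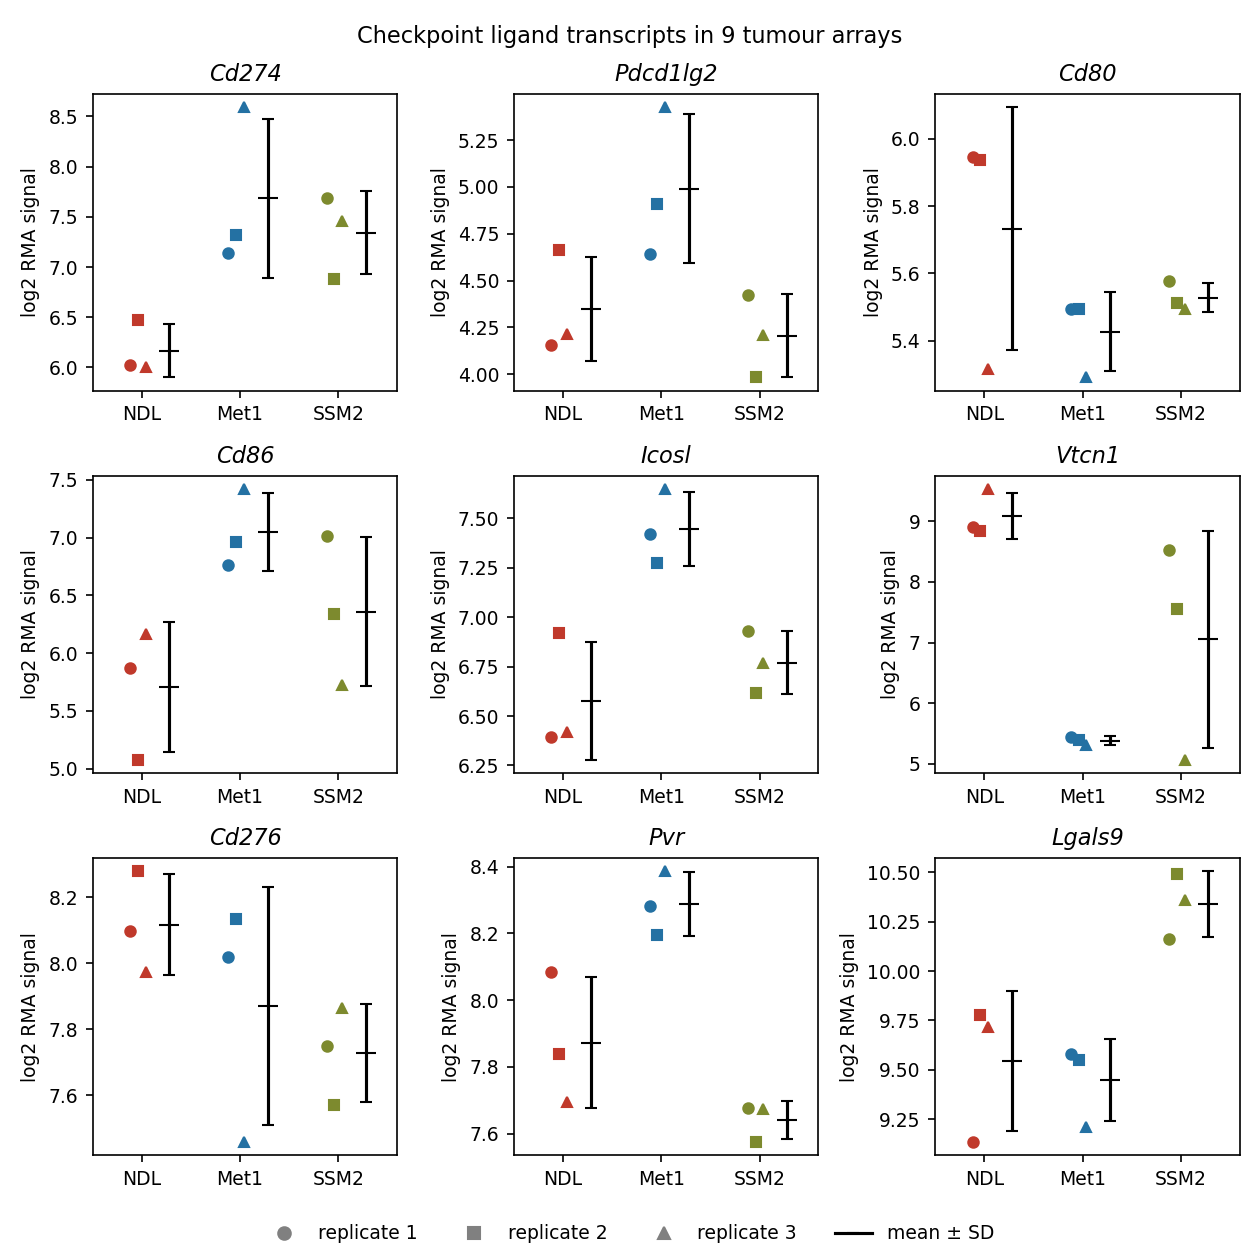
Signal of the 9 checkpoint ligand genes (y axis, log2 RMA signal, scaled per panel) in the tumour lines NDL, Met1 and SSM2 (x axis). Each point is 1 array, with the shape giving the replicate number, and bars are the mean ± SD of 3 arrays. Vtcn1 is above 8.8 in every NDL array and under 5.5 in every Met1 array, and Cd274 is lowest in the 3 NDL arrays.

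**Figure D2:**
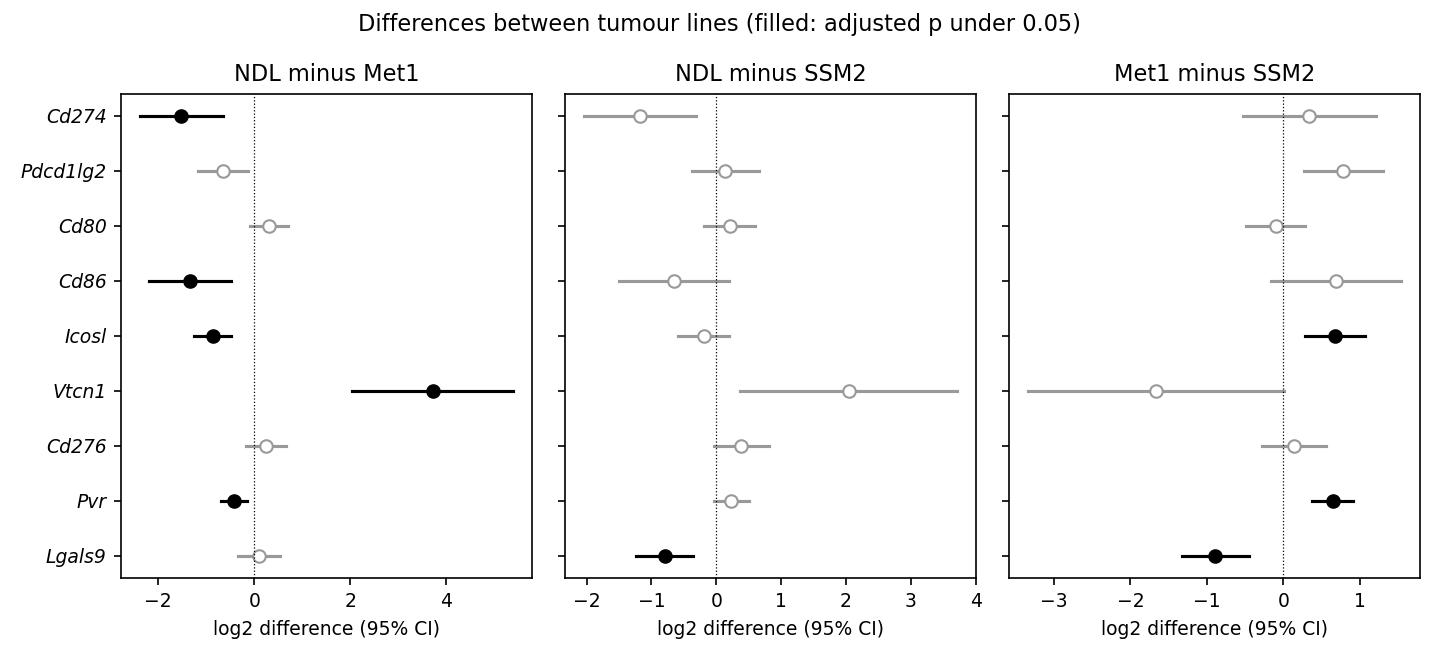
Log2 differences between lines (x axis, one panel per comparison) for the 9 members (y axis), with 95% confidence intervals of the limma fit. Filled black points passed an adjusted p of 0.05. NDL minus Met1 has 5 filled points, NDL minus SSM2 has 1 and Met1 minus SSM2 has 3.

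Cd274, which encodes PD-L1 (feature 10462390, chromosome 19), had log2 signals of 6.03, 6.47 and 6.00 in NDL, 7.14, 7.32 and 8.59 in Met1, and 7.69, 6.88 and 7.46 in SSM2. All NDL arrays lay below all arrays of both other lines, and Met1 replicate 3 stood above the rest. The NDL mean was 6.17 ± 0.27, against 7.68 ± 0.79 in Met1, a log2 difference of -1.52 (SE 0.38, 95% interval -2.38 to -0.65, adjusted p = 0.0252). That call ended without NDL replicate 1 (adjusted p = 0.0909) and with array weights (-1.21, adjusted p = 0.121), and without Met1 replicate 3 the difference was -1.06. Against the SSM2 mean of 7.34 ± 0.41 the log2 difference was -1.18 (SE 0.38, adjusted p = 0.0686), which did not pass although the arrays did not overlap. It passed when Met1 replicate 3 was left out (adjusted p = 0.0162), in the fit of NDL and SSM2 alone (0.0388) and with genes above the median signal (0.0466). Met1 and SSM2 differed by 0.34 with overlapping arrays (95% interval -0.53 to 1.21, adjusted p = 0.709), and the sign turned without Met1 replicate 3 (-0.11).

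Pdcd1lg2, the gene of the second PD-1 ligand (feature 10462398, next to Cd274 on chromosome 19), had log2 signals of 4.16, 4.66 and 4.22 in NDL, 4.64, 4.91 and 5.43 in Met1, and 4.42, 3.98 and 4.21 in SSM2. The mean over all arrays, 4.51, lay under the 25th percentile of gene means (4.91), so the size of its differences is uncertain. Met1 was highest, again in replicate 3. The log2 difference was -0.65 between NDL and Met1 (SE 0.23, adjusted p = 0.0852) and 0.79 between Met1 and SSM2 (SE 0.23, adjusted p = 0.061), and neither passed. After cyclic loess the first was -0.76 (adjusted p = 0.0404), and with equal array medians the second was 0.80 (adjusted p = 0.0483).

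Cd86, which encodes the B7-2 ligand of CD28 and CTLA-4 (feature 10439312, chromosome 16), stood at 5.87, 5.08 and 6.16 in NDL, 6.76, 6.96 and 7.42 in Met1, and 7.01, 6.34 and 5.72 in SSM2 on the log2 scale. Every NDL array was below every Met1 array, while the SSM2 arrays overlapped with both. The NDL mean of 5.71 ± 0.56 was lower than the Met1 mean of 7.05 ± 0.34 by a log2 difference of -1.34 (SE 0.37, adjusted p = 0.0381). It no longer passed without NDL replicate 1 or 2, Met1 replicate 1, 2 or 3, or SSM2 replicate 2 (adjusted p from 0.0587 to 0.131), nor with the replicate number as a block (adjusted p = 0.0629). Cd86 did not pass against SSM2 in NDL (-0.65, adjusted p = 0.24) or in Met1 (0.69, adjusted p = 0.329).

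Cd80, which encodes the B7-1 partner of Cd86, was measured by 2 features that gave different orders of the lines. The feature with the higher mean (10435712), whose annotation lists no RefSeq transcript, stood at 5.95, 5.94 and 5.32 in NDL, 5.49, 5.49 and 5.29 in Met1, and 5.58, 5.51 and 5.49 in SSM2. Its lines overlapped and no contrast passed (NDL minus Met1 0.31, adjusted p = 0.254; NDL minus SSM2 0.20, adjusted p = 0.412; Met1 minus SSM2 -0.10, adjusted p = 0.829). Without NDL replicate 3 it was called higher in NDL than in Met1 (0.52, adjusted p = 0.00796) and than in SSM2 (0.41, adjusted p = 0.0169).

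The other Cd80 feature (10435704), annotated with RefSeq transcripts, stood at 4.42, 4.57 and 4.41 in NDL, 5.31, 5.78 and 5.67 in Met1, and 6.18, 5.31 and 5.12 in SSM2. All 3 NDL arrays were below all arrays of the other lines. When this feature stood for Cd80, a choice made after its values were seen, the log2 difference was -1.12 between NDL and Met1 (SE 0.26, adjusted p = 0.0183) and -1.07 between NDL and SSM2 (SE 0.26, adjusted p = 0.0258), and 0.050 between Met1 and SSM2 (adjusted p = 0.955). The direction of Cd80 in NDL therefore depends on the feature. On 3 arrays (Met1 replicates 1 and 2 and SSM2 replicate 3) the first feature had the same value, and 38.1% of all genes shared a value between 2 or more arrays.

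**Figure D3:**
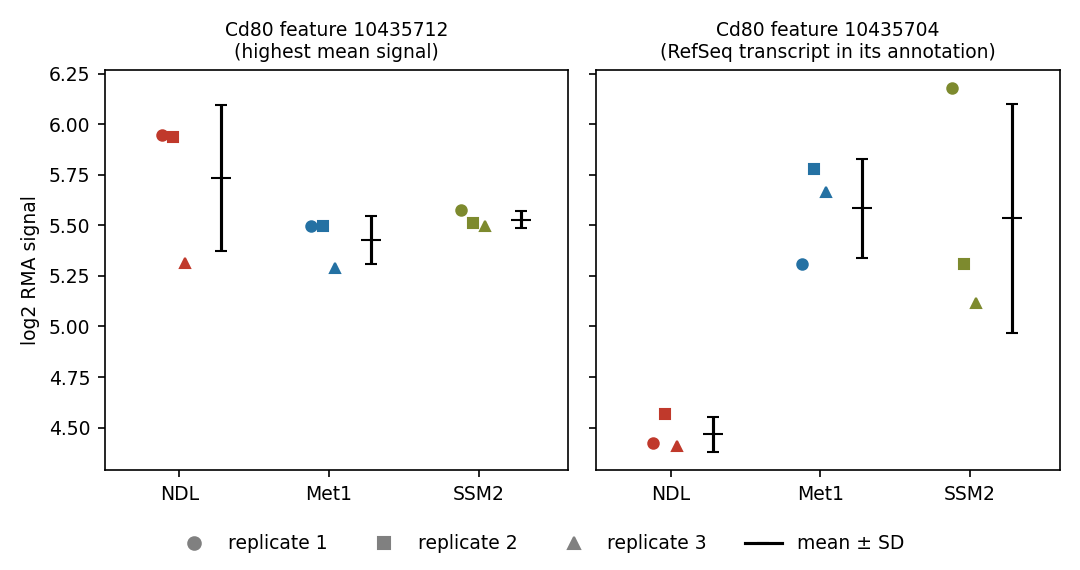
Log2 RMA signal (y axis) of both Cd80 features in the tumour lines (x axis). Points are arrays, with shapes for replicates, and bars are mean ± SD of 3 arrays. In the left panel NDL replicates 1 and 2 lie above the other lines, and in the right panel all 3 NDL arrays lie below them, at 4.57 or less.

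Icosl, which encodes ICOS ligand (feature 10364361, chromosome 10), stood at 6.39, 6.92 and 6.42 in NDL, 7.42, 7.27 and 7.65 in Met1, and 6.93, 6.61 and 6.77 in SSM2. Met1 arrays lay above all others, and NDL and SSM2 overlapped. The NDL mean of 6.58 ± 0.30 was lower than the Met1 mean of 7.45 ± 0.19 by a log2 difference of -0.87 (SE 0.17, adjusted p = 0.00916), and this call held with any 1 array left out, at an adjusted p of 0.00414 to 0.0424. Met1 was higher than SSM2 (mean 6.77 ± 0.16) by 0.68 (SE 0.17, adjusted p = 0.0377), which ended in 6 of the 9 fits that leave out 1 array, those without NDL replicate 1, any Met1 array, or SSM2 replicate 2 or 3 (adjusted p from 0.0536 to 0.13), and with the replicate block (adjusted p = 0.0897). NDL and SSM2 differed by -0.19 (95% interval -0.59 to 0.20, adjusted p = 0.442).

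Vtcn1, which encodes B7-H4, a ligand found on epithelial and tumour cells (feature 10494761, chromosome 3), had the widest range of the 9 genes. Its log2 signals were 8.91, 8.84 and 9.53 in NDL, 5.44, 5.40 and 5.30 in Met1, and 8.54, 7.55 and 5.07 in SSM2. Every NDL array exceeded every array of the other lines, whereas SSM2 was split, with replicate 3 below the Met1 arrays. The NDL mean of 9.09 ± 0.38 was higher than the Met1 mean of 5.38 ± 0.07 by a log2 difference of 3.71 (SE 0.73, 95% interval 2.04 to 5.39, adjusted p = 0.00894), and the call held with any 1 array left out, at an adjusted p of 0.000152 to 0.0352. Against the SSM2 mean of 7.05 ± 1.79 the difference was 2.04 (SE 0.73, adjusted p = 0.0909). It passed without SSM2 replicate 1 (2.78, adjusted p = 0.0268), and without SSM2 replicate 3 it was 1.05 (adjusted p = 0.0574). Met1 and SSM2 differed by -1.67 (adjusted p = 0.212), by -2.66 without SSM2 replicate 3 (adjusted p = 0.00162) and by -0.93 without SSM2 replicate 1 (adjusted p = 0.488). Within SSM2, replicate 3 had the highest mean of epithelial markers (11.13). It had the lowest means of macrophage (8.28), T cell (5.01), fibroblast (9.33) and endothelial (7.06) markers. Dendritic cell and B cell means were lowest in SSM2 replicate 2. NDL replicate 3 had the lowest macrophage mean of all arrays (8.24) and the highest Vtcn1. A part of cell content in the Vtcn1 values was not tested.

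Cd276, which encodes B7-H3 (feature 10594092, chromosome 9), varied little. It stood at 8.10, 8.28 and 7.97 in NDL, 8.02, 8.13 and 7.46 in Met1, and 7.75, 7.57 and 7.86 in SSM2. NDL arrays lay above SSM2 arrays, but the log2 difference of 0.39 (95% interval -0.03 to 0.81) did not pass (adjusted p = 0.172). The difference of 0.25 between NDL and Met1 (95% interval -0.18 to 0.67, adjusted p = 0.391) and that of 0.14 between Met1 and SSM2 (adjusted p = 0.757) did not pass either.

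Pvr, the gene of CD155 (feature 10560709, chromosome 7), stood at 8.08, 7.84 and 7.70 in NDL, 8.28, 8.20 and 8.39 in Met1, and 7.68, 7.58 and 7.67 in SSM2. The lines took separate ranges, with Met1 highest, NDL between and SSM2 lowest. Met1 was higher than SSM2 by 0.65 (SE 0.12, adjusted p = 0.00952), with means of 8.29 ± 0.10 and 7.64 ± 0.06, and this held with any 1 array left out, at an adjusted p of 0.00625 to 0.0421. NDL, at 7.87 ± 0.20, was lower than Met1 (log2 difference -0.41, SE 0.12, adjusted p = 0.0431). Among the 9 fits that leave out 1 array it held only in that without NDL replicate 1 (adjusted p = 0.0257), and the others gave 0.0524 to 0.143. It also ended after cyclic loess (-0.33, adjusted p = 0.128), with equal array medians (0.0803), with trend and robust fitting (0.08), with array weights (0.0547), with the replicate block (0.0743) and in a fit of these 2 lines alone (0.0717). NDL and SSM2 differed by 0.23 (95% interval -0.04 to 0.50, adjusted p = 0.202).

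Lgals9, which encodes galectin-9 (feature 10388902, chromosome 11), stood at 9.14, 9.78 and 9.72 in NDL, 9.58, 9.55 and 9.21 in Met1, and 10.16, 10.49 and 10.36 in SSM2. All SSM2 arrays exceeded all others, and NDL and Met1 overlapped. NDL, at 9.54 ± 0.36, was lower than SSM2, at 10.34 ± 0.17 (log2 difference -0.79, SE 0.19, adjusted p = 0.0258). Met1, at 9.45 ± 0.21, was lower than SSM2 (log2 difference -0.89, SE 0.19, adjusted p = 0.0196). The first call ended without NDL replicate 1 or SSM2 replicate 2 or 3 (adjusted p from 0.0553 to 0.0813) and in the fit of those 2 lines alone (adjusted p = 0.0692). The second ended without any Met1 array or SSM2 replicate 2 (adjusted p from 0.0506 to 0.0738). NDL and Met1 differed by 0.10 (95% interval -0.35 to 0.54, adjusted p = 0.765).

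Transcripts of immune cells moved along with several of these genes, and in bulk tissue fewer cells of a type and less RNA per cell cannot be told apart. The mean log2 signal of 8 macrophage markers lay at 8.24 to 8.95 in NDL arrays, at 9.97 to 10.23 in Met1 arrays and at 8.28 to 9.69 in SSM2 arrays. Between NDL and Met1, 7 of 8 macrophage markers were lower in NDL, with a median log2 difference of -1.49. Over all genes 10.2% were lower there. Of the members, Cd274, Cd86, Icosl and Pvr were lower there too, and Vtcn1 was higher. Between Met1 and SSM2, 4 of 8 macrophage markers were higher in Met1 (median 1.25), where 7.1% of all genes were higher. Icosl and Pvr were higher there and Lgals9 lower, while Cd274 (0.34, adjusted p = 0.709) and Cd86 (0.69, adjusted p = 0.329) did not pass in limma. Between NDL and SSM2 only Mrc1 passed, lower in NDL, where 7.52% of all genes were lower. All Cd274 arrays of NDL lay below those of SSM2. In SSM2 the macrophage mean was 9.69, 9.001 and 8.28 and Cd86 was 7.01, 6.34 and 5.72, so both were highest in replicate 1 and lowest in replicate 3. That order was not particular to macrophages. The T cell (5.86, 5.37 and 5.01), fibroblast (10.60, 9.79 and 9.33) and endothelial (7.88, 7.50 and 7.06) means shared it. The epithelial mean took the opposite order, and dendritic cell and B cell means were lowest in replicate 2. In NDL the orders of Cd86 and the macrophage mean differed, since replicate 2 had the highest macrophage mean (8.95) and the lowest Cd86 (5.08). None of the 8 dendritic cell markers passed between NDL and Met1 in limma (2 were lower at an unadjusted p under 0.05). Relative to SSM2, NDL had higher Itgax (1.07, adjusted p = 0.0395) and Met1 had higher Xcr1 (0.64, adjusted p = 0.0208). The mean of the list ranged from 5.51 to 6.05 in NDL, from 5.84 to 6.01 in Met1 and from 5.50 to 5.81 in SSM2.

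Among 6 T cell markers, 2 were lower in NDL than in Met1, Cd3g (-1.32) and Cd8a (-0.93). Those not called there went both ways, with Cd3e at -0.05, Cd2 at -0.33, Cd3d at 0.05 and Cd4 at 0.20. Cd3g and Cd8a were also higher in Met1 than in SSM2 (1.52 and 1.05). Shares over all genes are those given above for each comparison. The mean over the T cell list ranged from 5.39 to 6.01 in NDL, from 5.93 to 6.31 in Met1 and from 5.01 to 5.86 in SSM2. The 4 measured B cell markers, which had mean log2 signals from 4.23 to 4.53 over all arrays, gave no call in any limma comparison, nor at an unadjusted p under 0.05. Over all arrays the B cell markers Ms4a1 (mean 3.42) and Cd79a (3.49) and the T cell marker Cd3d (4.52) lay under the 25th percentile of gene means (4.91). Vtcn1 moved the other way and beside the epithelial markers between NDL and Met1, where all 6 epithelial markers were higher in NDL (median 3.28). All 6 were lower in Met1 than in SSM2, beside lower Lgals9, whereas between NDL and SSM2, where Lgals9 was also lower, no epithelial marker passed in limma or at an unadjusted p under 0.05 (median -0.02). Of 6 fibroblast markers, 3 were higher and 2 lower in NDL than in Met1, and none of 6 endothelial markers passed there (1 was lower at an unadjusted limma p under 0.05). The endothelial genes Pecam1 (-0.79, adjusted p = 0.00529) and Emcn (-1.34, adjusted p = 0.0185) were lower in NDL than in SSM2, and no fibroblast marker passed there (2 were lower at an unadjusted p under 0.05). The part of these cell types in the differences of the 9 genes was not tested.

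**Figure D4:**
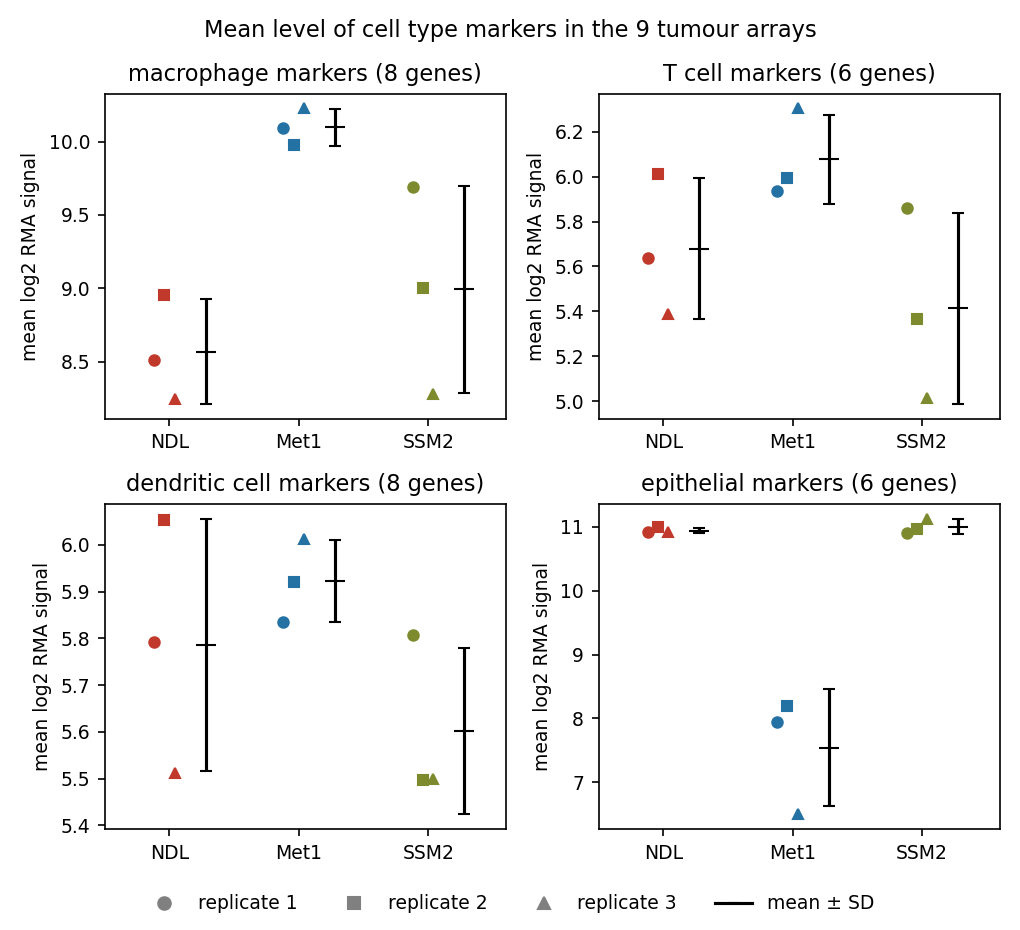
Mean log2 RMA signal (y axis) over the macrophage, T cell, dendritic cell and epithelial marker genes in each array of the tumour lines (x axis). Points are arrays, with shapes for replicates, and bars are mean ± SD of 3 arrays. Macrophage means are highest in the 3 Met1 arrays, at 9.97 or more, and epithelial means are lowest there, at 8.19 or less.

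Of 9 receptors that bind these ligands, 2 were lower in NDL than in Met1 and none higher (median -0.45). Over all genes 10.2% were lower and 8.88% higher there. The 2 receptors were Havcr2 and Rgmb. Havcr2, the gene of TIM-3, was lower by 3.13-fold (log2 difference -1.65, SE 0.36, adjusted p = 0.0144). Rgmb, a co-receptor of bone morphogenetic proteins that also binds PD-L2, was lower too (-0.89, SE 0.15, adjusted p = 0.00496). Havcr2 stood at 5.44, 5.01 and 5.80 in NDL, against 6.67, 6.97 and 7.56 in Met1, and its call ended without NDL replicate 1 or 2 or Met1 replicate 3, the highest adjusted p being 0.0561. Rgmb was also higher in Met1 than in SSM2 (0.92, SE 0.15, adjusted p = 0.00622), and both its calls held in all 9 fits with 1 array left out. Pdcd1, which encodes PD-1, stood at 6.16, 6.26 and 5.74 in NDL, 6.39, 6.58 and 6.88 in Met1, and 6.26, 6.05 and 5.91 in SSM2. The NDL arrays lay below the Met1 arrays, but the difference of -0.56 did not pass (adjusted p = 0.0652). Cd28, Ctla4, Icos, Cd226, Tigit and Cd96 passed in no comparison. Mean signals of Cd28, Cd226 and Cd96 lay under the 25th percentile of gene means (4.91), so their differences are uncertain in size. At an unadjusted limma p under 0.05, 4 receptors were lower in NDL than in Met1 and 4 were higher in Met1 than in SSM2. None passed that level in the opposite direction. Arrays did not overlap for 6 receptors, lower in NDL than in Met1, and for 4, higher in Met1 than in SSM2. The share of all genes was 18.6% each time. Between NDL and SSM2 none of the 9 receptors passed in limma, nor at an unadjusted p under 0.05 (median -0.02).

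Of 15 further ligands and modulators of checkpoints, 3 were higher and 1 lower in NDL than in Met1. Over all genes 8.88% were higher and 10.2% lower. Ceacam1, an adhesion molecule also described as a TIM-3 ligand, reached a 21.5-fold higher level (4.43 on the log2 scale, SE 0.55, adjusted p = 0.00103), at 9.67, 8.73 and 11.08 in NDL, against 5.40, 5.91 and 4.89 in Met1. Leaving out NDL replicate 3 gave 13.9-fold and leaving out both NDL replicates 1 and 2 gave 51.3-fold, and the call held both times. Btn1a1, a butyrophilin of milk fat globules, was higher by 0.66 (adjusted p = 0.00872). Nectin2, a second ligand of the CD226 and TIGIT pathway, was higher by 0.52 (adjusted p = 0.0353), whereas Pvr was lower, and its call held in only 3 of 9 fits with 1 array left out (the highest adjusted p was 0.109, and those without NDL replicate 3 or SSM2 replicate 1 or 3 passed). Btn2a2, a butyrophilin that restrains T cells in mice, was lower (log2 difference -0.69, adjusted p = 0.015), a call that ended without NDL replicate 1 or Met1 replicate 1 or 3 (the highest adjusted p was 0.0611). Its mean over all arrays, 4.32, lay under the 25th percentile of gene means (4.91), so the size of its differences is uncertain.

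Between NDL and SSM2 the same list had 2 genes higher and 1 lower in NDL. Over all genes 9.35% were higher and 7.52% lower. Vsir, which encodes the B7-related inhibitor VISTA, was 3.63-fold higher (1.86, SE 0.30, adjusted p = 0.00431), at 9.61, 9.78 and 9.72 in NDL, against 8.59, 7.77 and 7.17 in SSM2, and this held in all 9 fits with 1 array left out. Btn1a1 was higher by 0.80 (adjusted p = 0.00451). Cd200, which encodes a ligand that quietens myeloid cells, was lower (2.001-fold, adjusted p = 0.0452) and passed only without NDL replicate 3 or SSM2 replicate 3 among those fits (the highest adjusted p was 0.141).

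Between Met1 and SSM2, 3 genes of this list were higher and 2 lower in Met1. Over all genes 7.1% were higher and 4.71% lower. Sirpa, the macrophage receptor for CD47, was higher by 1.51 (adjusted p = 0.0304), Btn2a2 by 0.92 (adjusted p = 0.00605) and Vsir by 1.13 (adjusted p = 0.0428). Ceacam1 was 18.0-fold lower (-4.17, SE 0.55, adjusted p = 0.0021) and Vsig4, a complement receptor of resident macrophages, was lower (log2 difference -0.78, adjusted p = 0.0347). The Btn2a2 and Ceacam1 calls held in all 9 fits with 1 array left out. The Vsir call held only without SSM2 replicate 1, the Sirpa call without NDL replicate 2 or 3 or SSM2 replicate 1 or 3, and the Vsig4 call without NDL replicate 3, Met1 replicate 3 or SSM2 replicate 3. The highest adjusted p of these 3 genes were 0.135, 0.101 and 0.126.

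PD-L1 is known to be induced by interferon-gamma through JAK kinases, and its protein is kept at the cell surface by CMTM6 and CMTM4 and sent to lysosomes by HIP1R. Of 13 measured regulators of this kind, 2 were higher and 1 lower in NDL than in Met1, against 8.88% and 10.2% of all genes. Lower in NDL than in SSM2 were 2, against 7.52% of all genes. Lower in Met1 than in SSM2 were 4, against 4.71% of all genes. Cmtm6 was lower in NDL (-0.70, adjusted p = 0.0223) and in Met1 (-0.99, SE 0.16, adjusted p = 0.00554) than in SSM2, where it stood at 10.45, 10.24 and 9.93. The first of these calls ended without NDL replicate 1 or SSM2 replicate 1 or 2 (the highest adjusted p was 0.0776). Cmtm4 was higher in NDL than in Met1 (0.58, SE 0.10, adjusted p = 0.00387) and lower in Met1 than in SSM2 (-0.85, SE 0.10, adjusted p = 0.000966). Hip1r followed the same order, higher in NDL than in Met1 (0.79, SE 0.16, adjusted p = 0.00968) and lower in Met1 than in SSM2 (-1.21, SE 0.16, adjusted p = 0.00193). Both Cmtm4 calls and both Hip1r calls held with any 1 array left out.

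Ifngr1, the ligand-binding chain of the interferon-gamma receptor, was lower in NDL than in Met1 (-1.39, SE 0.39, adjusted p = 0.0396), but passed only without NDL replicate 3 or SSM2 replicate 1 or 3 among the fits with 1 array left out (the highest adjusted p was 0.128). Ifng itself lay at 4.91 to 5.67 in NDL arrays, at 5.04 to 5.63 in Met1 arrays and at 4.68 to 5.11 in SSM2 arrays, and passed in no comparison. Irf1, an interferon-induced activator of the Cd274 promoter, stood at 8.75, 9.32 and 8.67 in NDL, 8.91, 9.24 and 10.12 in Met1, and 9.50, 8.91 and 8.57 in SSM2, and did not pass either. Within Met1 its highest array was replicate 3, as it was for Cd274, Pdcd1lg2, Cd86, Icosl and Pvr. The other members, with Cd80 by its main feature, were lowest there. Means of the macrophage, T cell, dendritic cell and B cell markers were also highest in that array within Met1. A link of these genes to Irf1 was not tested.

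Jak2, the kinase gene that lies near Cd274 on chromosome 19, stood at 6.55, 5.73 and 8.66 in NDL, 7.45, 7.98 and 7.46 in Met1, and 10.82, 10.13 and 10.99 in SSM2. All SSM2 arrays were above all others, and NDL replicate 3 was apart from the rest of its line. The NDL level of Jak2 was below that of SSM2 by 12.7-fold (log2 difference -3.66, SE 0.65, adjusted p = 0.00656), and the Met1 level by 8.09-fold (-3.02, SE 0.65, adjusted p = 0.0185). Leaving out NDL replicate 3 turned 12.7-fold into 22.7-fold, leaving out NDL replicate 2 into 8.20-fold, and leaving out both NDL replicates 1 and 2 into 3.95-fold, and the call held each time. The second call ended without Met1 replicate 1 or 3 or SSM2 replicate 1 (the highest adjusted p was 0.0724).

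**Figure D5:**
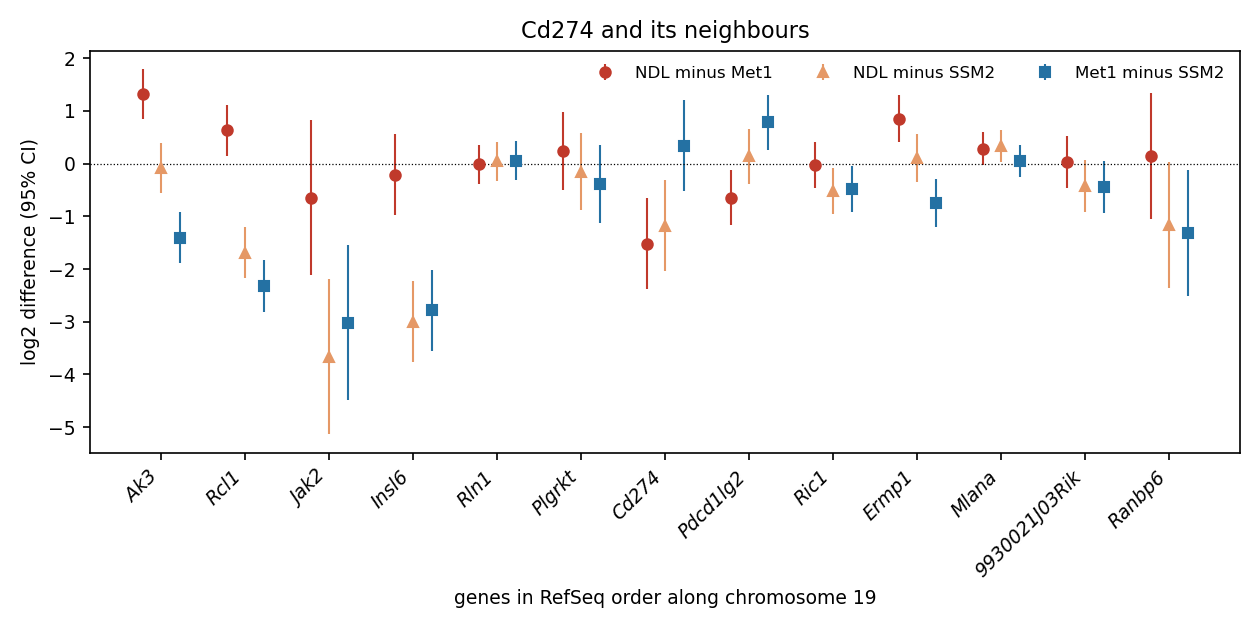
Log2 differences with 95% confidence intervals (y axis) for Cd274 and the 12 protein-coding genes nearest to it, 6 on each side in RefSeq order (x axis), in the 3 comparisons. Rcl1, Jak2 and Insl6 have differences of -1.69 or lower in both comparisons with SSM2, while Cd274 is at -1.18 in NDL minus SSM2 and 0.34 in Met1 minus SSM2.

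The 12 protein-coding neighbours of Cd274 were then examined, a set chosen after the Jak2 values were seen. Rcl1, Jak2 and Insl6, which follow each other, were all lower in both other lines than in SSM2. Rcl1, a factor of ribosomal RNA processing, fell by 1.69 in NDL and by 2.32 in Met1, and Insl6, a relaxin family gene, fell by 3.00 in NDL and by 2.78 in Met1. These 4 calls had adjusted p from 0.000356 to 0.00137 and held with any 1 array left out. Over all genes 7.52% were lower in NDL and 4.71% lower in Met1 than in SSM2, and 8.88% were higher in NDL than in Met1. Rln1 and Plgrkt, between Insl6 and Cd274, passed in no comparison. On the other side of Cd274, Pdcd1lg2, Ric1, Mlana, 9930021J03Rik and Ranbp6 did not pass either. Relative to SSM2, Ric1 was at -0.52 in NDL and -0.48 in Met1, and Ranbp6 at -1.17 and -1.32. In the same order 9930021J03Rik was at -0.42 and -0.45, while Mlana was at 0.34 and 0.05. Ak3, an adenylate kinase gene at the far end of the window, was higher in NDL than in Met1 (1.32) and lower in Met1 than in SSM2 (-1.40), and Ermp1 did the same (0.85 and -0.75). The first Ermp1 call ended without Met1 replicate 1 or 3 (the highest adjusted p was 0.0694) and the second passed only without NDL replicate 2 or 3 (the highest was 0.143). For Cd274 itself the Met1 and SSM2 arrays overlapped.

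The genes most like each member over the 9 arrays were listed by Pearson's r, as a description. The arrays come from 3 lines and are not independent points. Cd274 was most like Stx11 (r = 0.956), Pdcd1lg2 most like Batf2 (0.978), Vtcn1 most like Cyb561a3 (0.98) and Cd276 most like Svop (0.978). Icosl came closest to Kcnab2 (0.973), Cd86 to Klhl5 (0.984), Pvr to Kcnj12 (0.977) and Cd80, by its main feature, to Cacnb2 (0.983). Lgals9 was closest to Pi4k2a (0.947), followed by Krt19 (0.929), a keratin of simple epithelia. Pdcd1lg2 also had Tnfrsf14, the gene of the BTLA ligand HVEM, among its 3 closest genes (0.958), and Cd276 had Igsf11, which encodes a described VISTA ligand (0.94). Krt19, Tnfrsf14 and Igsf11 were singled out for what they encode. The remaining genes were Mdp1 and Atp6v1g1 for Cd274, Atoh8 for Pdcd1lg2, Araf and Adamts15 for Vtcn1, and Rreb1 for Cd276. Icosl had Dpp9 and Sh3bgrl3, Cd80 had L3mbtl1 and Osr2, and Cd86 had Rsu1 and Eloa. Pvr had Cpne2 and Ogdhl, and Lgals9 had Tuft1.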

How the data were processed

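Total RNA of 9 snap-frozen tumour samples was hybridised to 1 array each. Per the submitters' processing notes the deposited values are log2 signals from RMA (oligo 1.40.2), and neither the build nor hybridisation batches is given in the sources used here. Array values have no read depth, so the number of arrays, 3 per line, limits the precision.

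Of 35556 features, 21789 had 1 gene symbol, 1621 several and 12146 none, and 21698 of the first were matched to RefSeq (GRCm38.p6) by gene ID. One feature per gene, that with the highest mean, left 19938 genes with no filter. The deposited log2 values were fitted in limma 3.58.1 (R 4.3.3) with lmFit and eBayes on all 9 arrays (6 residual and 2.42 prior degrees of freedom). Contrasts and an F-test were adjusted by Benjamini-Hochberg across the 19938 genes (called where adjusted p was below 0.05). All 9 members are named, as are the genes of 3 pathway lists that passed, and for each member up to 3 genes with the highest r. Members and lists were chosen with earlier results of these data known. Genes named outside that rule, chosen after their values were seen, are marker genes, the receptors that did not pass, Ifng, Irf1 and the neighbours of Cd274. The procedure was tested on simulated data. Motifs were searched in RefSeq promoters. Figures used matplotlib 3.10.9. Alternatives were other scalings, filters on low signal, trend and robust fitting, array weights, a replicate block, the mean of a gene's features, fits of a pair of lines and fits that leave out 1 array.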

Additional observations from a re-analysis of the deposited data

How the results depend on the processing

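With 3 arrays per line, a single array often decides whether a small difference passes. The 9 called member differences were fitted again in 170 alternative fits, of which 128 kept the call, 42 lost it and none turned in sign. The 18 uncalled ones gave 334 fits, of which 13 passed and 12 turned in sign, and 2 of these did both (Cd80 with its RefSeq feature). Turned in sign were Pdcd1lg2 in NDL minus SSM2 (-0.012 after cyclic loess, and from -0.020 to 0.25 with 1 array left out), Lgals9 in NDL minus Met1 (from -0.022 to 0.30 with 1 array left out), and Cd274 in Met1 minus SSM2 (from -0.11 to 0.61 likewise). Cd80 turned with the mean of its features (-0.41 in NDL minus Met1, -0.43 in NDL minus SSM2), without NDL replicates 1 and 2 (-0.11 and -0.21), and with the RefSeq feature (-1.12, -1.07 and, in Met1 minus SSM2, 0.050). The last 2 settings were chosen after seeing the data. The cause was not tested for the other genes.

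Counts of members moved as follows. Between NDL and Met1, lower members numbered 4, but 2 with array weights, 2 with the replicate block, 2 without NDL replicates 1 and 2, and from 2 to 3 with 1 array left out. Higher members there numbered 1, but 0 without NDL replicates 1 and 2, and from 1 to 2 with 1 array left out. Between NDL and SSM2, lower members numbered 1, but 2 with genes above the median signal, 2 with the RefSeq feature of Cd80, 0 without NDL replicates 1 and 2, and from 0 to 2 with 1 array left out, and higher members from 0 to 1. Between Met1 and SSM2, higher members numbered 2, but 1 with the replicate block and from 1 to 2 with 1 array left out, and lower members 1, but 2 with array weights and from 0 to 2 with 1 array left out. The F-test passed for 5 members, for 3 without NDL replicates 1 and 2 and for 3 to 6 with 1 array left out.

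Over all genes, calls in NDL minus Met1 (1771 higher, 2043 lower) were 973 and 729 without NDL replicates 1 and 2, and from 1168 to 3371 and 1151 to 3260 with 1 array left out. Those in NDL minus SSM2 (1865 and 1499) were 827 and 363 without those arrays, 1080 and 675 in a fit of the 2 lines alone, and from 1195 to 3996 and 678 to 3022 with 1 array left out. In Met1 minus SSM2 (1416 and 940) there were 2223 and 1784 with array weights, whose estimate did not fully converge, and from 827 to 1607 and 533 to 1166 with 1 array left out. Deviations of same-numbered arrays correlated at r from -0.35 to 0.29. They were not compared with those of differently numbered arrays, so a pairing by replicate number cannot be judged and the block is only an alternative. With a signal under the 25th percentile of gene means, as for Pdcd1lg2, Btn2a2 and Vsig4, the size of a difference is uncertain.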
